A study of Mus musculus with 11 samples.

Results

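Sfpi1 is the mouse gene that encodes PU.1. It was examined in 100 kb of chromosome 2 (mm9), from 56.9 kb before to 43.1 kb after its start, chosen by position and not by any measured value, and it is 1 of 22,219 protein-coding genes of the annotation used. The 100 kb hold 11 of the 38,593 regions in which PU.1 ChIP exceeded input in at least 1 of 2 cell types, called merged peaks below. They also reach 5 other protein-coding genes, Rapsn, Psmc3 and Slc39a13 on the upstream side and Mybpc3 and Madd on the downstream side.

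PU.1 is an Ets family factor that binds DNA at a GGAA core and directs the development of macrophages and B cells. Immature erythroid cells also make it, and its level has to fall before they can mature. An enhancer far upstream of the gene, the upstream regulatory element (URE), raises its transcription in myeloid cells, and PU.1 itself can bind there and at the promoter, which is the basis of its autoregulation. In the erythroleukemias that Friend virus causes in mice, proviruses are often found integrated near Sfpi1.

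The data are ChIP-Seq libraries from 2 cell types. MEL cells are mouse erythroleukemia cells, here clone 4 of a line that carries a stably introduced Gata-1 to ER fusion and was kept in puromycin. ES-EP are erythroid progenitors grown from embryonic stem cells and kept dividing with Epogen, IGF-1, dexamethasone and SCF. PU.1 was immunoprecipitated with the T-21 antibody from 2 chromatin preparations, A and B, of each cell type, and every preparation gave 2 libraries. Input DNA was sequenced in 1 library for MEL cells and in 2 for ES-EP. The 11 libraries hold from 2,054,667 to 5,051,235 placed reads of 27 or 28 bases. The labels do not say how far preparations A and B are apart as cultures, so n = 2 preparations per cell type may be technical. Intervals given here are exact 95% intervals, and they cover counting error only. Read positions carry no expression values, so that the cell types were not checked against marker genes, but a base described at the end of this account separated every MEL read from every ES-EP read over it.

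The URE was placed by the primers of its amplicon, which match the genome once and span chr2:90923214-90923299. This is 13,681 bp upstream of the Sfpi1 start used here, position 90,936,937, where the transcript Sfpi1-002 begins. The highest point of PU.1 ChIP within 1 kb of that amplicon lay inside it. The 300 bases around that point, chr2:90923121-90923420 of mm9 on the plus strand, are shown because they hold the URE peak, where PU.1 bound its own gene in both cell types. In the annotation they fall in an intron, beyond a short first exon (chr2:90922547-90922680) of the transcripts Sfpi1-003 and Sfpi1-004. Capitals mark every GGAA or its reverse complement TTCC.

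URE: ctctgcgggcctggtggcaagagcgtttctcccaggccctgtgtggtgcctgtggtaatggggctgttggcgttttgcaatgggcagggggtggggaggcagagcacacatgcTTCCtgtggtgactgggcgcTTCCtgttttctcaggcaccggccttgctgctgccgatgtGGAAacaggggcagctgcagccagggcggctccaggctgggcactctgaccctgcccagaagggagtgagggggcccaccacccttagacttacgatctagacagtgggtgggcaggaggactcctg

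The GGAA words began at 90,923,234 and 90,923,254 on the minus strand and at 90,923,294 on the plus strand, all inside the amplicon. GGAA is so short that 96.9% of the 38,593 merged peaks hold it in a window of 300 bp, so its presence marks nothing. The longer PU.1 word GAGGAAGT, found in 22.6% of merged peaks on either strand, was not among these letters. The Runx core TGTGGT occurred 3 times, at 90,923,162, 90,923,171 and 90,923,238, and 18.3% of merged peaks hold it at least once. The Sp1 word GGGCGG occurred 1 time, at 90,923,317, and 26.8% of merged peaks hold it. The GATA word AGATAA, the octamer ATGCAAAT and the E2F word GCGGGAA were not among these letters. Of merged peaks, 15.9%, 1.25% and 4.24% hold them. The paper reports E2F2 and E2F4 at the URE in MEL cells by ChIP with quantitative PCR. A missing word therefore says nothing of the factor. All words were searched on both strands, and the TTCC at 90,923,234 abuts the TGTGGT at 90,923,238.

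PU.1 occupied the URE in both cell types, well above input. In 500 bp around the highest point, MEL preparation A gave 7 and 16 reads in its 2 libraries and preparation B gave 32 and 65. These are 3.41, 4.39, 11.7 and 15.3 RPM, which stands for reads per 1,000,000 reads of the library, against 3 reads or 0.701 RPM in the MEL input. ES-EP preparation A gave 10 and 23 reads and preparation B gave 7 and 31, which are 4.25, 5.85, 3.10 and 6.40 RPM. The ES-EP inputs gave 3 reads and 1 read, or 1.23 and 0.198 RPM. All 8 ChIP libraries therefore lay above all 3 inputs, and MEL preparation B stood apart from the other 3 preparations. Genome-wide, 19,662 MEL peaks were called without preparation A and 7,670 without preparation B. The difference between the MEL preparations is thus not confined to the URE.

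Scaled for depth, the ratio of ChIP to input at the URE was 5.76 (1.74 to 30.0) in MEL preparation A and 19.8 (6.58 to 97.7) in MEL preparation B. It was 9.83 (3.50 to 38.2) and 10.0 (3.61 to 38.7) in ES-EP preparations A and B. The inputs held 3 and 4 reads in these 500 bp. Summed over preparations the ratio was 13.5 in MEL cells and 9.93 in ES-EP. It was 17.7 and 33.0 in a window of 200 bp, and 8.03 and 13.1 without the shift of the reads toward their fragment centres. The order of the cell types thus turned with the setting. The 200 bp lie inside the 500 bp and cannot hold more input reads, so this order rests on very few reads and is not read as a result. The called peak was chr2:90923001-90923500, the smallest adjusted p of its 200 bp windows was 4.77e-80 in MEL cells and 1.39e-43 in ES-EP by the Poisson test against local input with Benjamini-Hochberg adjustment, and it was called in both cell types under every alternative calling rule tried. Those p-values treat reads as independent and say nothing of the spread between preparations.

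The reads of both strands placed the centre of the bound fragments close to the GGAA words. In MEL cells the 63 plus-strand reads had their median 5′ end at 90,923,192 and the 56 minus-strand reads at 90,923,334, with the middle at 90,923,263. In ES-EP 43 and 27 reads had medians at 90,923,206 and 90,923,375, with the middle at 90,923,290. The 3 GGAA words lie between 90,923,234 and 90,923,297.

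The URE ranked high in MEL preparation B and lower elsewhere. By RPM in the 500 bp around the summit, it was number 464 of the 38,593 merged peaks in MEL B, 2,562 in MEL A, 1,835 in ES-EP B and 5,505 in ES-EP A. The 3 merged peaks whose levels over the 4 preparations were closest to it lay 23 bp before a start of Ccdc15, 53 bp after a start of Rapgef3 and 55 bp before a start of Prpf38b. Their distances from the URE were 0.353, 0.384 and 0.395, the root of summed squared differences of log2(RPM + 0.5) over 4 preparations. The peak near Ccdc15 had 21 and 83 reads in MEL A and B, beside 39 and 34 in the ES-EP preparations, against 23, 96, 33 and 38 at the URE.

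**Figure D1:**
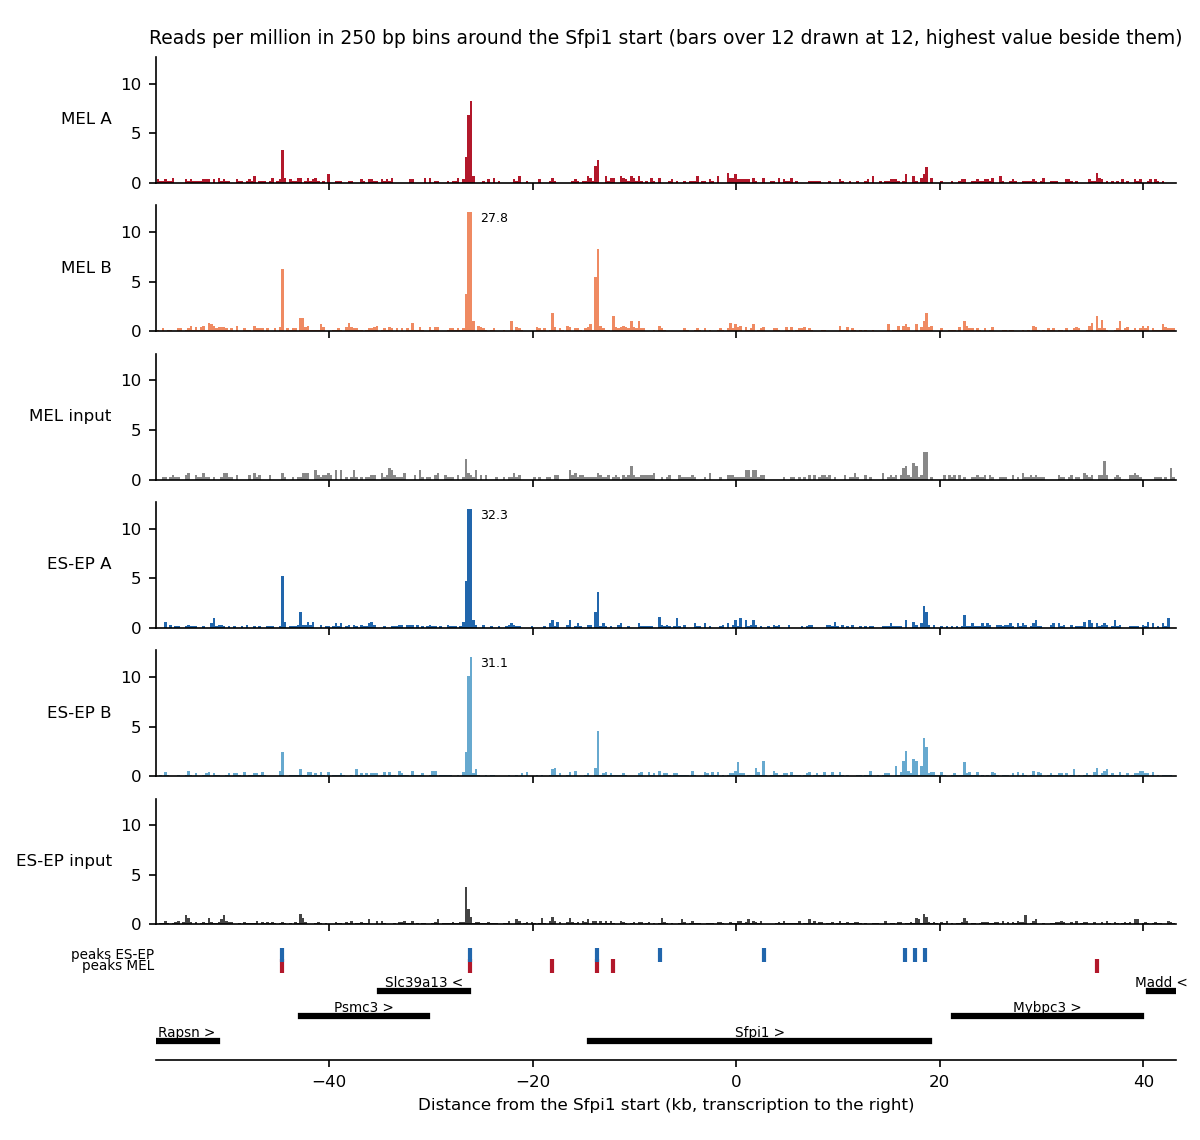
RPM in 250 bp bins over the 100 kb around the Sfpi1 start (x axis, kb from the start), with 1 row for each ChIP preparation and each cell type's input, the called peaks as ticks and the genes as bars with their direction. The highest column in every ChIP row stands at the Slc39a13 promoter, 26.1 kb upstream, and the URE column 13.7 kb upstream is present in all 4 ChIP rows and in neither input.

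The URE was 1 of 11 merged peaks around Sfpi1, and it was not the strongest. In MEL cells 6 peaks were called in the 100 kb and in ES-EP 8. Of the 2,000 windows of 200 bp tested there, 31 passed in MEL cells (1.55%) and 43 in ES-EP (2.15%), against 0.190% and 0.153% of all 53,097,854 windows of the genome. The peaks shared by both cell types were 3, the URE and those at chr2:90892101-90892500 and chr2:90910351-90911100. Over the genome 11,763 of the 38,593 merged peaks were called in both, so calls in 1 cell type alone are common and not a trait of this region.

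The strongest peak, chr2:90910351-90911100, had its summit 226 bp before a start of Slc39a13, which encodes a zinc transporter. It held 77 and 295 reads in MEL A and B, 330 and 283 reads in ES-EP A and B, and 4 and 12 reads in the MEL and ES-EP inputs. It ranked 209, 59, 113 and 59 of the 38,593 merged peaks in these 4 preparations, and in every one of them it exceeded the URE. The peak at chr2:90892101-90892500 lay 1,866 bp before a start of Psmc3, a proteasome subunit gene, and held 23, 47, 36 and 21 reads with 4 input reads in each cell type. On the downstream side, a peak inside Mybpc3 at chr2:90972251-90972550, 35.4 kb after the Sfpi1 start, was called in MEL cells with 9 and 12 reads, beside 4 and 9 in ES-EP and 1 input read in each cell type. No peak was called within 2 kb of a start of Rapsn or Mybpc3 in either cell type.

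Between the URE and the promoter, PU.1 reads were few and the calls were weak. A peak at chr2:90924751-90924950, 12.1 kb upstream of the start, was called in MEL cells at an adjusted p of 0.0110 (Poisson windows). It held 4 and 13 reads in MEL A and B, 1 and 3 reads in ES-EP A and B, and 2 and 4 input reads. A peak at chr2:90929301-90929550, 7.5 kb upstream, was called in ES-EP at 0.00964 with 9 and 4 reads there, 3 and 6 in MEL cells and 1 and 5 input reads. The latter was the sole window of the 11 with the word GAGGAAGT. Further out, a peak at chr2:90918701-90919000, 18.1 kb upstream, was called in MEL cells with 4 and 16 reads, beside 7 and 10 in ES-EP, which also had 9 input reads to 1 in MEL cells.

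Fixed windows of 500 bp centred 12, 10, 9 and 8 kb upstream of the start held little. At 12 kb, MEL A and B gave 3 and 13 reads with 3 in the input, a ratio of 0.751 (0.101 to 5.61) and 2.65 (0.729 to 14.5), while ES-EP gave 1 read in each preparation and 2 in the input. At 10 kb, MEL cells gave 6 and 7 reads with 5 in the input, and ES-EP gave 0 and 0 with 2 in the input, where 0 reads allow up to 3. At 9 and 8 kb no preparation had more than 4 reads. Every interval of a ratio in these 4 windows that could be computed includes 1, so no enrichment was detectable in windows of this size. The window at 12 kb contains the peak called in MEL cells with 200 bp windows.

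The Sfpi1 promoter had more ChIP than input reads in both cell types, but no peak was called. The window was centred on the highest ChIP point within 1 kb of the amplicon, as was that of the URE, which by itself raises the ratio to input where reads are few. Its amplicon spans chr2:90936828-90936927, directly before the start. In 500 bp around the highest point near it, MEL libraries gave 1, 7, 4 and 5 reads (A1, A2, B1, B2), or 0.487, 1.92, 1.46 and 1.18 RPM, with 3 in the input (0.701 RPM). ES-EP libraries gave 2, 5, 3 and 10 reads, or 0.850, 1.27, 1.33 and 2.07 RPM, with 0 and 4 in the inputs. The libraries of the cell types overlap, and 1 MEL library lies under its input.

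The ratio of ChIP to input at the promoter was 2.00 (0.481 to 11.7) and 1.84 (0.458 to 10.5) in MEL A and B, and 2.09 (0.530 to 9.71) and 3.43 (1.06 to 14.4) in ES-EP A and B. The intervals do not allow for the choice of the window, so none of the 4 is read as enrichment. The paper reports PU.1 bound at this promoter region in MEL cells by ChIP with quantitative PCR, a measurement outside these libraries. Summed over preparations, the MEL ratio of 1.91 became 3.71 in a window of 200 bp and 2.87 without the shift of the reads. The ES-EP ratio of 2.80 became 2.24 in 200 bp and stayed at 2.80 without the shift. With calling windows of 500 bp in place of 200 bp, ES-EP passed at the start and MEL cells still did not. The 300 bp from 250 bp before to 50 bp after the start hold GGAA or TTCC 5 times, as do at least 1 time 95.4% of 45,962 such windows at protein-coding starts. The word nearest the start lies at 90,936,917, 20 bp before it, at the end of the amplicon, and 30 bases around it (chr2:90936905-90936934, plus strand, capitals as above) are shown for comparison with the URE.

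Promoter: tcgataaaatcaGGAActtgtgctggccct

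The promoter window also held the Sp1 word GGGCGG 1 time, as 44.3% of such windows do. It held none of the longer PU.1 word (2.96% of windows), the octamer (1.51%), the Runx core (14.8%) or the GATA word (9.44%). No match says that these letters are not in the window and nothing of the factors.

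**Figure D2:**
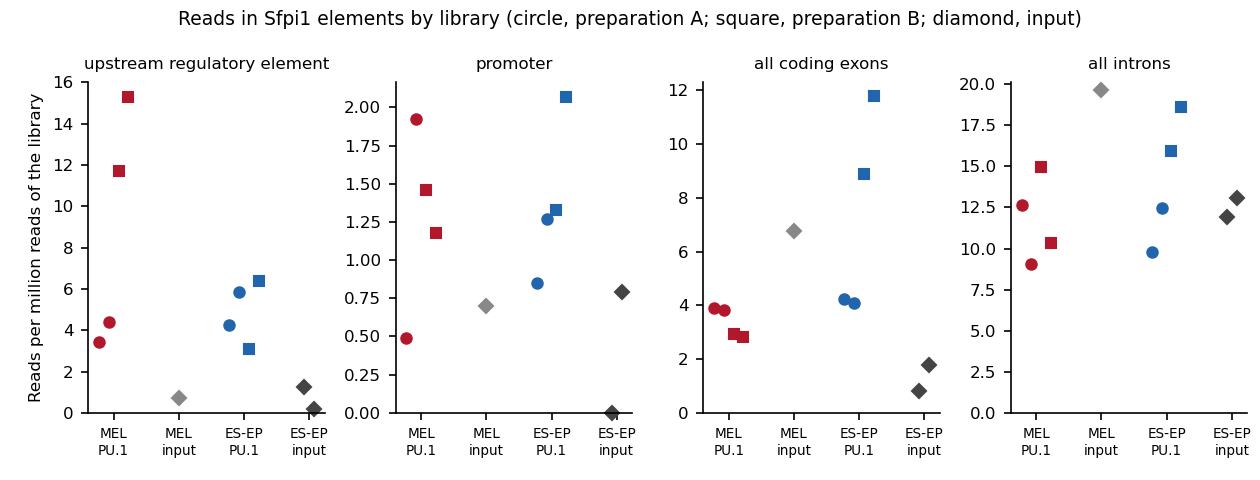
RPM (y axis, 1 scale per panel) in the URE, the promoter, all coding exons and all introns of Sfpi1, 1 point per library. At the URE all ChIP libraries stand above the inputs and MEL preparation B stands highest, while in the coding exons the MEL input stands above all 4 MEL ChIP libraries.

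PU.1 occupancy was compared between MEL cells and ES-EP to ask whether the leukemic cells differ at the locus. With limma (voom) over the 4 preparations and all 38,593 merged peaks, 767 peaks (1.99%) passed an adjusted p of 0.05, and 0 of the 11 peaks around Sfpi1 did. At an unadjusted p of 0.05, 6,757 of all merged peaks passed, and 1 of the 11, the peak 12.1 kb upstream, did. At the URE the log2 fold change of MEL over ES-EP was 0.47 ± 0.73 (SE), adjusted p = 0.738 by limma. Preparations A and B of MEL cells differed more from each other (4.04 and 13.7 RPM) than either differed from ES-EP (5.25 and 5.36), so that without MEL preparation B the sign turned, to -0.38.

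At the peak 12.1 kb upstream the log2 fold change was 1.84 ± 0.92 (SE), unadjusted p = 0.0449 and adjusted p = 0.273 by limma, with 0.702 and 1.86 RPM in MEL A and B against 0.159 and 0.423 RPM for ES-EP. Both MEL preparations were above both ES-EP preparations. Counted in 200 bp around the summit it was 2.98 with an adjusted p of 0.0361, the 1 setting of 11 in which any of the 11 peaks passed. In that setting 2,224 of all merged peaks (5.76%) passed. The peak 12.1 kb upstream entered the comparison through its call in MEL cells alone, and the same reads helped to set its summit. That selection favours a higher MEL value, so the order of the preparations and these p-values are not independent of it. At the Slc39a13 promoter the change was -0.94 ± 0.82 (SE, adjusted p = 0.542 by limma). The other peaks lay between -1.09 and 0.80, with adjusted p from 0.395 to 0.968 by limma. A difference that missed the threshold with 2 preparations a side does not show that the cell types are alike.

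A different pattern lay over the exons of Sfpi1. In ES-EP, 4 of the 8 called peaks sat on exons 2, 3, 4 and 5, and in MEL cells no exon was called. The ES-EP calls came from preparation B: without it, no exon was called, and without preparation A all 4 were. Over the genome the number of ES-EP peaks went the other way, with 16,138 called without B and 5,477 without A. At the exon 3 peak, chr2:90953301-90953750, ES-EP A and B gave 5 and 29 reads, MEL A and B gave 6 and 9, and the ES-EP and MEL inputs gave 2 and 11. The exon 2 peak (chr2:90939551-90939800) gave 0 and 13 reads in ES-EP preparations A and B, 3 and 3 in MEL cells, 0 in the ES-EP inputs and 3 in the MEL input. The exon 4 peak (chr2:90954351-90954650) gave 6 and 23 reads in ES-EP, 5 and 5 in MEL cells, 6 in the ES-EP inputs and 13 in the MEL input. At the exon 5 peak, chr2:90955201-90955700, the same order of samples gave 25 and 49, 14 and 17, and 13 and 21 reads. MEL input thus held more reads there than either MEL preparation, before scaling for depth.

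To leave out the shift of the reads, reads that lie whole inside each part of the gene were counted as aligned. The 5 coding exons (816 bp) held 25 and 18 such reads in MEL A and B, 38 in the MEL input, 26 and 96 in ES-EP A and B, and 8 in the ES-EP inputs. In RPM these are 4.39, 2.58, 8.88, 4.14, 13.5 and 1.07. ES-EP preparation B and the MEL input, which was not immunoprecipitated, were therefore the highest of the 6. In the introns between these exons (17,627 bp) the same sets held 55, 84, 74, 70, 105 and 94 reads, from 9.65 RPM in MEL A to 17.3 RPM in the MEL input.

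Over all libraries, whole reads came to 259 per kb of coding exon, 115 per kb of the 3′ untranslated part, 65.1 per kb of the 5′ untranslated part after the start used here, and 27.3 per kb of intron. Exons 3, 4 and 5 held 272, 235 and 319 per kb of coding sequence and exon 2 held 155. The 45 bp of coding sequence in exon 1 held 4 reads, or 88.9 per kb. The shorter an exon, the fewer start positions per kb are open to a read that must lie whole inside it. Values per kb are lowered by this in short exons, so exon 1 and exon 2 are not ranked against the longer exons. The coding reads were 211, of which 118 lay on the plus strand, and they took 200 distinct positions. In the MEL input, 17 of the 19 reads in the coding part of exon 5 were on the plus strand and 0 of the 6 reads in the 3′ untranslated part after it were. This was the most uneven set. In exon 5, MEL A and B had 8 of 12 and 4 of 8, ES-EP A and B 14 of 20 and 23 of 36, and the ES-EP inputs 5 of 6. In the 3′ untranslated part the same sets had 1 of 4, 2 of 10, 3 of 4, 4 of 11 and 1 of 7.

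**Figure D3:**
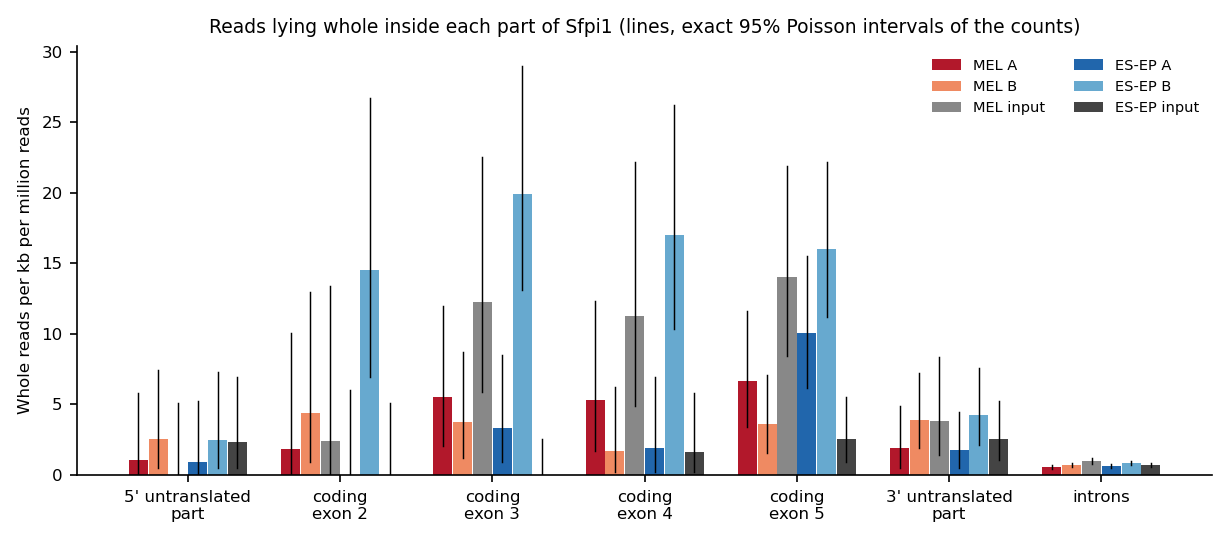
Whole reads per kb in RPM (y axis) in parts of Sfpi1 (x axis), 1 bar for each preparation or input and lines for exact 95% Poisson intervals of the counts. ES-EP preparation B and the MEL input are highest over coding exons 3 to 5, and all 6 bars are low in the introns.

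The ratio of exon to intron read density placed Sfpi1 far from most genes in some libraries and not in others. With reads shifted to fragment centres, the ratio was 7.46 (4.71 to 11.5) in the MEL input, where the median gene had 1.28 and Sfpi1 ranked 26 of 14,475 genes with at least 10 reads. In the ES-EP inputs together it was 2.50 (1.21 to 4.68), rank 2,660 of 15,284, and in the single ES-EP inputs 1.49 (0.172 to 5.89) and 2.95 (1.29 to 5.94). The interval of the MEL input begins at 4.71 and that of the summed ES-EP inputs ends at 4.68. Without the last exon the ratios were 3.92 and 0.800.

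Among ChIP preparations the ratio was 13.2 (9.81 to 17.7) in ES-EP B, rank 33 of 15,322, and 7.80 (4.78 to 12.4) in ES-EP A, rank 389 of 14,962. It was 8.05 (4.70 to 13.3) in MEL A, rank 79 of 14,922, and 5.08 (2.96 to 8.35) in MEL B, rank 871 of 15,328. Ranking only genes with at least 80 reads, a limit set after seeing the data, put Sfpi1 at 3 of 5,411 in the MEL input, 15 of 7,726 in ES-EP B and 16 of 6,261 in MEL A. It stood at 215 of 6,933 in ES-EP A, 384 of 7,928 in MEL B and 1,251 of 7,686 in the ES-EP inputs. The 5 genes with the highest finite ratio in the MEL input were Gm10717, St6galnac1, Gm9733, 1110034A24Rik and Sirpb1a, with ratios of 56.2, 18.9, 14.0, 13.0 and 11.8, and 4 genes had no intron read. Gm10717 had 2 intron reads and Sirpb1a 3 exon reads, so that their order is loose.

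Reads that cross from an exon into an intron were nearly absent from Sfpi1. Over all 11 libraries, 211 reads lay whole inside coding exons and 8 crossed an exon-intron boundary, with 681 or 686 start positions open to the former and 216 or 208 to the latter, by read length. With the start positions summed over libraries this is 2.80 and 0.348 reads per 100 start positions, a ratio of 0.125. In 10,205 genes with exons and introns of at least 60 bp, the same ratio of crossing to inside density was between 0.802 and 0.952 in the single libraries. The MEL input had 38 reads inside and 0 across, and ES-EP preparation B had 96 inside and 2 across. The other sets were less lopsided in number: MEL A had 25 and 1, MEL B 18 and 2, ES-EP A 26 and 2, and the ES-EP inputs 8 and 1.

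**Figure D4:**
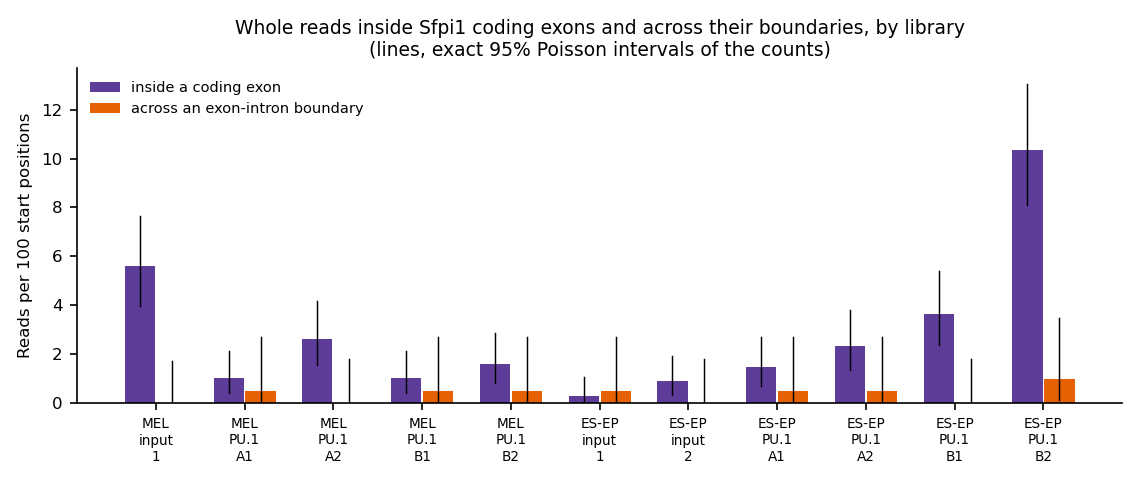
Reads per 100 possible start positions (y axis) inside Sfpi1 coding exons and across their boundaries with introns, for each of the 11 libraries, with exact 95% Poisson intervals of the counts. The inside bar is highest in library B2 of ES-EP and in the MEL input, and no library has more than 2 reads across a boundary.

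Of the crossing reads, 5 had at least 5 bases in the exon and could be set against both the intron and the neighbouring exon. In 3 of them, from ES-EP A1, MEL B1 and ES-EP A2, the 7, 19 and 7 bases beyond the boundary matched the intron with 0 mismatches. In 1 from ES-EP B2, a single base lay beyond the boundary and matched both. In 1 from MEL A1, at the start of exon 2, the 2 bases beyond the boundary differed from the intron at 2 positions and matched the end of exon 1 at both. Reads were placed with at most 2 mismatches, so a read that joined exons could be placed only where its overhang differed from the intron at no more than 2 bases.

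Gata1 gives a point of reference, since the MEL line carries a Gata-1 fusion gene. Its exon to intron ratio was 4.00 (2.02 to 8.39) in the MEL input, rank 276 of 14,475, and the MEL input had 29 reads inside its coding exons and 1 across a boundary. Per start position the density across boundaries was 0.176 of that inside. The MEL PU.1 libraries had 42 inside and 8 across, a density ratio of 1.02, so crossing reads were not scarce there. A PU.1 peak was called within 2 kb of a start of Gata1 in MEL cells. These ChIP counts may therefore include local PU.1 signal, which was not tested. The ES-EP PU.1 libraries had 10 and 1 (0.533), and the ES-EP inputs 0 and 0. At Sfpi1 the labels describe no introduced copy. What put the reads on the exons, and whether they come from the locus at all, was not tested.

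The ES-EP exon calls cannot be told apart from this exon excess, which lies over the same exons and was also present in the MEL input. At the coding exons, the ratio of ChIP to input was 0.570 (0.312 to 1.03) and 0.422 (0.226 to 0.773) in MEL A and B, and 2.82 (1.34 to 6.32) and 7.39 (3.91 to 15.4) in ES-EP A and B. At the introns it was 0.527 (0.372 to 0.745), 0.620 (0.453 to 0.848), 0.903 (0.655 to 1.24) and 1.40 (1.06 to 1.85) in the same order. In the 2 kb after the 3′ end of the gene there were 4, 10, 5 and 14 reads with 3 and 10 in the inputs, and all 4 intervals include 1. Over the whole 100 kb the 4 preparations held 566, 1,138, 961 and 999 reads and the inputs 483 and 607.

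The inputs were then compared along the region, to see whether read density or coverage differed between the cell types. Over the 100 kb the MEL input held 483 reads and the ES-EP inputs 607, a depth-scaled ratio of MEL to ES-EP of 1.39 (1.23 to 1.57), or 1.33 with the coding exons left out. Chromosome 2 as a whole had a ratio of 0.863. In bins of 5 kb the ratio ran from 0.630 to 3.19. The highest, 3.19 (1.71 to 6.15), lay over Psmc3 at percentile 97.9 of 441,149 bins of the genome. The next, 2.69 (1.60 to 4.60) at percentile 96.2, held exons 3 and 4, where the MEL input had 40 reads and the ES-EP inputs 26. The 500 bp around the exon 3 and exon 4 peaks held 11 and 13 of these MEL input reads. They held 2 and 6 of the ES-EP input reads, so the ratio of this bin includes the exon excess described above.

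The bin with the URE had a ratio of 1.30 (0.776 to 2.16), and the bin after it, toward the promoter, 2.24 (1.29 to 3.94) at percentile 93.0. In that second bin, read counts outside the called peaks were 28 and 40 in MEL A and B, beside 15 and 18 in the ES-EP preparations. In the bin at 3.19 they were 18 and 34 beside 24 and 27, and in the bin at 2.69 they were 14 and 12 beside 11 and 22. The 5th and 95th percentiles of all bins were 0.318 and 2.48, so 2 of the 20 bins, those just named at 3.19 and 2.69, lay above the upper one and 0 below the lower one. The bins on both sides of each were lower, 1.09 and 2.10 beside the first and 1.39 and 1.62 beside the second. Among bins of chromosome 2 alone, these 2 bins lay at percentiles 99.2 and 98.3. There the bin after the URE lay at percentile 96.0, and the bin starting at 90,970,000, with a ratio of 2.45, at 97.4.

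Read coverage was too thin to show a break such as the edge of an inserted provirus. MEL libraries together placed 2,187 reads on the 100 kb, covering 32.0% of its bases with 0.590 reads starting per 27 bp, and ES-EP libraries placed 2,569 and covered 32.4%. Stretches of 54 bp or more with no read numbered 373 in MEL cells, fewer than the 412 of ES-EP. The longest in MEL cells, 836 bp at chr2:90939676-90940511, lies at the start of intron 2, and the next, of 798 and 618 bp, lie after the 3′ end and before the promoter. The longest in ES-EP were 598, 542 and 490 bp. An insertion that removes no reference sequence would leave a gap no longer than a read, which is not detectable here.

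**Figure D5:**
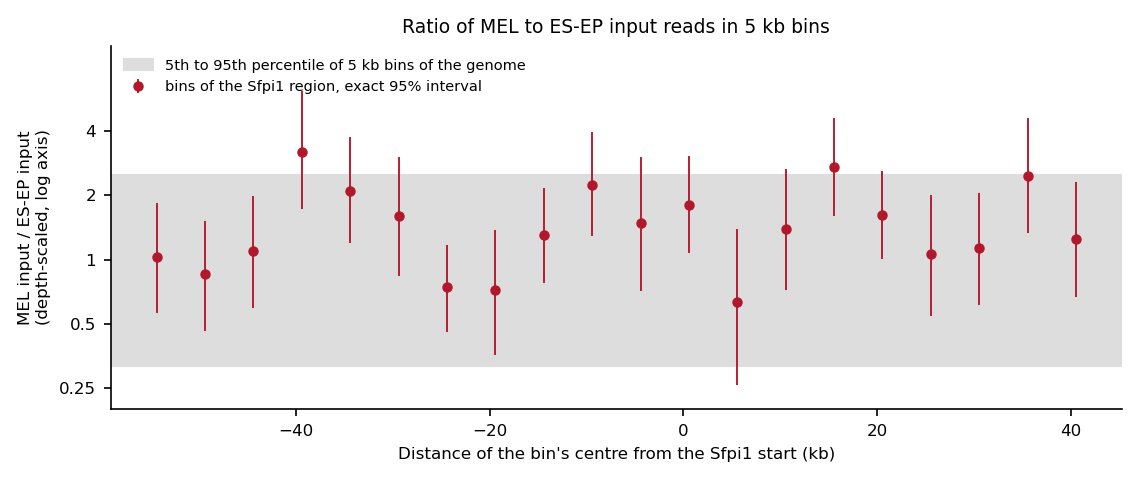
Depth-scaled ratio of MEL to ES-EP input reads (y axis, log scale) in 5 kb bins by distance from the Sfpi1 start (x axis, kb), with exact 95% intervals and the band of the 5th to 95th percentile of all 5 kb bins of the genome. The highest bin stands at 3.19, and 2 of the 20 bins lie above the band.

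The read sequences themselves differed from the reference at a few positions of the region. Positions at which at least 3 reads carried the same other base numbered 7, and at 5 of them such reads made up at least 25% of the reads. Substitutions are given as reference base, mm9 position on chromosome 2 and read base, on the plus strand. In the Slc39a13 promoter peak, A90910543T was in 27 of 27 MEL reads (6 of 6, 19 of 19 and 2 of 2 in A, B and input) and in 0 of 40 ES-EP reads. In the URE, A90923140G was in 8 of 8 MEL reads and in 0 of 1 ES-EP read, and it lies near the left edge of the printed sequence, outside the GGAA words.

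A90950348T in intron 2 and A90962165G beyond the gene were in 3 of 3 MEL reads each and in 0 of 1 and 0 of 2 ES-EP reads. The remaining position lies in exon 3, where T90953497C was in 4 of 4 MEL reads and in 4 of 4 ES-EP reads. The MEL reads there were 1 from preparation B and 3 from the input, and the ES-EP reads were 1 from A and 3 from B. At the other 4 of these positions all MEL reads differed from all ES-EP reads, but outside the Slc39a13 promoter peak only 1 or 2 ES-EP reads lay over them. At this position in the exon the cell types carried the same base. The list holds only positions with at least 3 reads off the reference, so positions at which both match it are left out. The origin of the shared base was not tested.

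Genes reported to act on Sfpi1 or together with PU.1 were examined as a list of 20, chosen with earlier results of these data known, to see whether PU.1 lay at their starts. Of these, 19 are protein-coding in the annotation, and Gfi1, which is listed otherwise there, was not examined. A called peak lay within 2 kb of a start of 17 of the 19 in MEL cells, of 16 in ES-EP and of 14 in both. Such a peak was found for 41.9% (MEL cells) and 28.4% (ES-EP) of 22,219 protein-coding genes. The share of all genes with one in both cell types is not given here. This is a description without a test, and genes with several annotated starts have more chances to hold a peak.

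The list's members with a peak in both cell types included Runx1 and Cbfb, the subunits of the core binding factor that binds the URE, the Ets factor Elf1, the zinc finger factors Gata1, Gata2, Gfi1b, Ikzf1 and Sp1, the bZIP factors Cebpb and Junb, and Pou2f1, Lef1, Satb1 and E2f4. Cebpa, Fli1 and Myb had a called peak in MEL cells and none in ES-EP, and Jun and E2f2 had one in ES-EP and none in MEL cells. Such calls depend on a threshold, and 11,763 of all 38,593 merged peaks were called in both. At Myb the log2 fold changes were only -0.13, -0.12 and -0.26 (adjusted p from 0.846 to 0.933 by limma). The paper reports PU.1 at Myb and Fli1 in both cell types, also by ChIP with quantitative PCR. In the limma comparison, 47 merged peaks had their summit within 2 kb of a start of the 19 genes, and 2 of them passed an adjusted p of 0.05 (11 at an unadjusted p of 0.05). Of all 38,593 merged peaks, 767 (1.99%) passed the former threshold and 6,757 the latter. One of 4 peaks at Fli1, an Ets factor gene, held 20 and 37 reads in MEL A and B beside 4 and 1 in the ES-EP preparations, a log2 fold change of 3.53 ± 0.90 (SE, adjusted p = 0.0135 by limma). One of 2 peaks at Jun held 5 and 7 reads beside 40 and 29, a change of -2.35 ± 0.70 (SE, adjusted p = 0.0471 by limma). Each of these 2 peaks was in the comparison through a call in the cell type where it is higher, and the same reads helped to set its summit. That selection favours a difference in the direction seen. No peak at Cebpa, Myb or E2f2 passed. Both calls were made with 2 preparations a side. Leaving out a MEL preparation leaves 1 sample in that group, so such a fit cannot show whether the calls depend on 1 preparation. Sfpi1 itself had a called peak within 2 kb of a start in both cell types, the URE peak, 703 bp after the start of the transcripts that begin upstream.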

How the data were processed

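The authors sequenced 8 PU.1 ChIP and 3 input libraries, aligned the reads with ELAND (version not given in the sources used here) to mm9 and deposited uniquely aligned reads, 1 per line, with chromosome, start, strand and sequence. The deposited files hold no other measured unit, and every count was made from these lines. Starts were read as counted from 1, and all 4,847 reads compared in and around the region matched the genome with at most 2 mismatches. Reads on unplaced or mitochondrial sequence were left out.

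The 5′ ends were moved by 70 bp (MEL cells) or 65 bp (ES-EP) toward the fragment centre. Windows of 200 bp every 50 bp were tested with at most 1 read per position, strand and library, by a Poisson test. Its mean was the highest among input scaled for depth (in the window itself and in surrounding spans of 1, 5 and 10 kb) and the average over the genome. The threshold held under 0.05 the Benjamini-Hochberg rate as well as an empirical rate obtained by swapping the roles of input and ChIP. Overlapping peaks of the cell types were merged, all reads were counted in 500 bp around the summit, and the libraries of a preparation were summed. MEL cells and ES-EP were compared with limma 3.58.1 (voom, two-sided moderated test, no filter, Benjamini-Hochberg adjustment over 38,593 merged peaks) in R 4.3.3. The scripts for windows and for limma were tested on simulated data. Ratios of ChIP to input were scaled by total reads and have exact binomial intervals. The URE and promoter were each taken as 500 bp centred on the ChIP maximum found no more than 1 kb from its amplicon, which for the URE lay 21 bp from the peak's summit. Exons and introns were those of the transcript with the longest coding sequence of each gene (for Sfpi1, Sfpi1-001, with the start of Sfpi1-002) in the GENCODE vM1 annotation of the same assembly. Gene lists, elements and the rule for named genes were chosen with earlier results of these data known. Named genes were Sfpi1, its neighbours, Gata1, the 5 genes with the highest exon to intron ratio in the MEL input, those at the 3 merged peaks most like the URE, and 20 regulators. Alternatives were other windows, thresholds, scalings and read filters, leaving out each preparation, and the replicate letter as a block. Letters A and B come from the labels, which do not say that they mark a shared day or batch between the cell types.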

Additional observations from a re-analysis of the deposited data

Results flagged for a closer look

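The ratio of ChIP to input over the coding exons of Sfpi1 lay on opposite sides of 1 in the cell types. All 4 MEL PU.1 libraries were lower there in RPM than the MEL input, with a summed ratio of ChIP to input of 0.488, and all 4 ES-EP PU.1 libraries were higher than both ES-EP inputs, with a summed ratio of 5.24. The difference of these ratios was not tested. In ChIP reads alone, the log2 fold changes of MEL over ES-EP at the peaks on exons 2, 3, 4 and 5 were 0.38, -0.61, -1.09 and -1.07, and none passed (adjusted p from 0.395 to 0.852 by limma). The MEL value rests on 1 input library, and the introns of Sfpi1 were also below that input, at 0.578 (0.439 to 0.766). The ES-EP value was 2.82 without preparation B and 7.39 without preparation A.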

How the results depend on the processing

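The URE peak was called in both cell types under each of the 6 alternatives for calling run in each cell type. The number of peaks in the 100 kb ranged from 3 to 6 in MEL cells and from 3 to 7 in ES-EP when 1 preparation was left out, and without MEL preparation B or ES-EP preparation B it was 3. Genome-wide the counts were 19,662 and 7,670 without MEL A and B, and 5,477 and 16,138 without ES-EP A and B. The 767 peaks called genome-wide by limma became 1,733 on log2 CPM plus 0.5, 3,329 with median-ratio scaling (which moved the median log2 fold change of all peaks from -0.19 to -0.042), 181 with at least 20 reads, 3,577 with each library as a sample and 2,224 in 200 bp, and from 0 to 222 without 1 preparation. The lowest of these, 0 without MEL preparation A or B, stood beside 4,168 and 4,311 peaks at an unadjusted p under 0.05. With the replicate block it was 573, the URE change was 0.37 (adjusted p = 0.879 by limma), and the block changed no call among the 11 peaks. The A preparations of the cell types deviated with r = -0.0096 across peaks, so the letters were not taken as pairs. At the URE the change of 0.47 lay between -0.38 (without MEL preparation B) and 1.36 without 1 preparation. Of the 11 peaks around Sfpi1, only that 12.1 kb upstream passed in any of these limma settings (2.98 in 200 bp windows, adjusted p = 0.0361, range over its settings 0.0361 to 0.644). Uncalled changes turned sign at 5 other peaks. Without 1 preparation they ranged from -0.13 to 0.80 at 90,892,101 (-0.041 without MEL B), from -0.75 to 0.83 at 90,918,701 (-0.12 without ES-EP A), from -0.97 to 0.28 at 90,929,301, from -1.80 to 2.78 at 90,939,551 and from -1.74 to 0.51 at 90,953,301. With the block they were -0.023 at 90,918,701 and -0.83 at 90,939,551, with single libraries -0.00108 at the former and on log2 CPM -0.14 at the latter. Ratios of ChIP to input moved at the MEL promoter to 3.71 in 200 bp and 2.87 without the shift, at the ES-EP URE to 33.0 in 200 bp, 9.01 with 1 read per position and 13.1 without the shift, and at the ES-EP coding exons to 8.95 without the shift. The exon to intron ratio fell from 7.46 to 3.92 in the MEL input and from 2.50 to 0.800 in the ES-EP inputs without the last exon, and was 15.6 in the ES-EP PU.1 libraries without the shift. The causes were not tested. In the 500 bp windows with shifted reads, the inputs held 3 and 4 reads at the URE and at the promoter. The windows of 200 bp lie inside these and cannot hold more, so the ratios there rest on very few input reads.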
